A study of Homo sapiens with 2 samples.

Results

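The accessible chromatin around MYC and PVT1 was examined in GM12878, an established human lymphoblastoid line of B cells immortalized by Epstein-Barr virus. The window was set by position, from 127800000 to 129700000 on chromosome 8 of hg19, and a region belonged to it if its midpoint lay inside. By this rule 40 of the 23612 accessible regions in the deposited list were members. ATAC-seq, which reads open chromatin from the places where a transposase inserts sequencing adapters, was run on 2 cultures with 50000 cells each. The cells were untreated and growing exponentially, and both libraries form 1 group of the same line. The result is 1 list for both cultures, without counts or values per culture, so the depth is unknown, the spread between cultures cannot be given, and no comparison below could be tested over samples. Every value is a description of this list.

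MYC encodes a transcription factor that drives growth and division, and its level in a cell is known to be set largely by enhancers that lie far from the gene. In lymphoblastoid lines these include enhancers far upstream, which viral nuclear proteins are known to occupy. PVT1, the next gene downstream, makes a long non-coding RNA. Its promoter and its body are known in other cells to hold elements that act on MYC, and both genes lie where lymphoma translocations break the chromosome. In the RefSeq gene order of GRCh38.p14, used only for neighbours, no gene is listed between MYC and PVT1. The nearest protein-coding genes are POU5F1B before MYC and GSDMC after it, with 2 non-coding RNA genes between POU5F1B and MYC and 0 protein-coding genes among the 21 between MYC and GSDMC.

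Both gene starts lay in accessible regions, and the members gathered in a few places with long empty stretches between them. Of the 40 regions, 16 had their midpoint upstream of the MYC start and 24 downstream, over nearly equal lengths of 948 and 952 kb. Members were most frequent in the interval of known enhancers 430 to 560 kb upstream of MYC, with 10 regions, and in the body of PVT1, with 16. These stretches made up 130 and 307 kb of the 1900 kb window and held 26 of its 40 regions. Beyond the enhancer interval, the remaining 388 kb of the window upstream held 0.

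**Figure D1:**
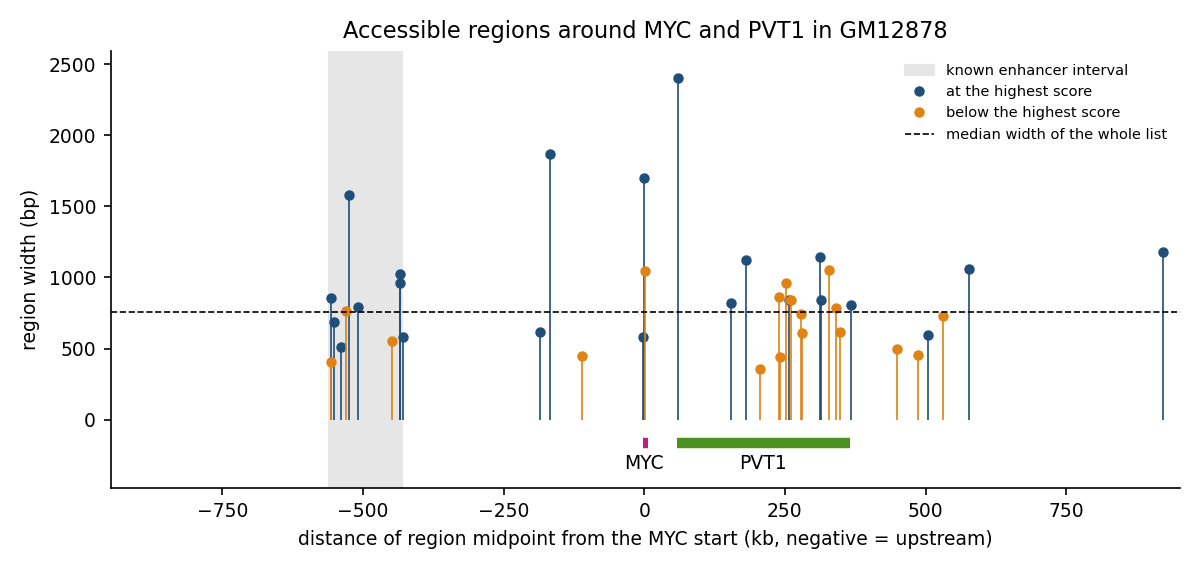
Each accessible region of the window is drawn at the distance of its midpoint from the MYC start (kb) with its width (bp) as height; blue marks regions at the highest deposited score, orange those below it, the grey band the known enhancer interval, and the bars under the axis MYC (drawn wider than scale for visibility) and PVT1. The widest region, of 2404 bp, lies at the PVT1 start, and no region lies between 577.8 and 921.8 kb downstream.

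At MYC itself (chr8:128748315-128753680, plus strand), 3 regions lay within 4.93 kb, from 2.22 kb before the start to 2.71 kb after it. The region over the start was 1702 bp wide (chr8:128747062-128748763) and had a score of 1000, the list's highest, shared by 60.1% of all regions. It was placed unevenly about the start, with 1253 bp before it and 449 bp from it on. Only 6.36% of the regions in the list were as wide or wider. A separate region of 580 bp, also at 1000, lay 386 bp before it (chr8:128746096-128746675). Another, of 1047 bp with a score of 996, lay 1210 bp after it and wholly within the gene (chr8:128749974-128751020). Accessible chromatin at MYC was thus listed as 1 region across the start with a separate region on either side of it.

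The start of PVT1 (chr8:128806779-129113499, plus strand) lay in the widest region of the window, at 2404 bp (chr8:128806587-128808990). In the whole list 313 regions, or 1.33%, were as wide or wider. In contrast to the region at the MYC start, it lay almost wholly on the gene's side, with 192 bp before the start and 2212 bp from it on. It also stood alone: the nearest region before it was the one inside MYC, 55.6 kb away, and the nearest after it lay 92.9 kb away. No region had its midpoint in the 53.1 kb between the end of MYC and the start of PVT1.

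The upstream enhancer interval held 10 regions in 130 kb, or 76.9 per Mb, against 9.2 per Mb on chromosome 8 as a whole. The rate depends on the bounds, which are approximate: drawn in by 20 kb on each side, the interval held 4 regions, or 44.4 per Mb, which is below the 52.2 per Mb of PVT1. Its members fell into a far and a near group that were 61.02 kb apart. The far group had 7 regions over 48.6 kb, from 558 to 509 kb upstream of MYC. Its outermost 3 lay together, at 557 kb (408 bp, score 952), 556 kb (859 bp, score 1000) and 551 kb (690 bp, score 1000) upstream. A region of 509 bp at 539 kb upstream and 1 of 763 bp at 529 kb followed, with scores of 1000 and 958. The next, at 526 kb upstream, was the widest of the interval (chr8:128221950-128223533, 1584 bp, score 1000), and 8.25% of the list was as wide or wider. The group ended with a region of 789 bp at 509 kb upstream, at the highest score.

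The near group began with a region of 553 bp at 448 kb upstream, whose score of 619 was the lowest of all upstream members. It was followed by 2 regions side by side at 435 kb (chr8:128312943-128313968, 1026 bp) and 433 kb upstream (chr8:128314530-128315489, 960 bp), both at the highest score. Another region at that score, of 582 bp, lay at 428 kb upstream (chr8:128319805-128320386). This last one falls just outside the bounds as given and is not among the 10, although it is 4.32 kb from its neighbour. Counted with the near group, it gave 4 regions over 19.98 kb, of which they covered 15.6%. The far group covered 11.5% of its length.

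Between the enhancer interval and the MYC start, accessible regions were fewer than in the interval, at 14 per Mb. This rate counts the region at 428 kb upstream and the 2 next to the MYC start, all at the edges of the stretch. A rate without them was not computed, so none is set against the average of chromosome 8. After the region at 428 kb upstream came 242 kb with no region (chr8:128320387-128562399). Then followed a region of 614 bp at 186 kb and 1 of 1869 bp at 168 kb upstream (chr8:128579151-128581019), both at the highest score. The latter was the second widest of the window, and 4.27% of the list was as wide or wider. A single narrow region of 449 bp with a score of 796 lay at 111 kb upstream, and the 108 kb from there to the cluster at MYC held none. With the 2 regions next to the MYC start and the one at 428 kb, this stretch of 430 kb held 6 regions. The median was 2 over 7049 consecutive windows of that length on chromosomes 1 to 22 and X, with quartiles at 0 and 5. Like the rate, the count of 6 depends on these edge regions.

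**Figure D2:**
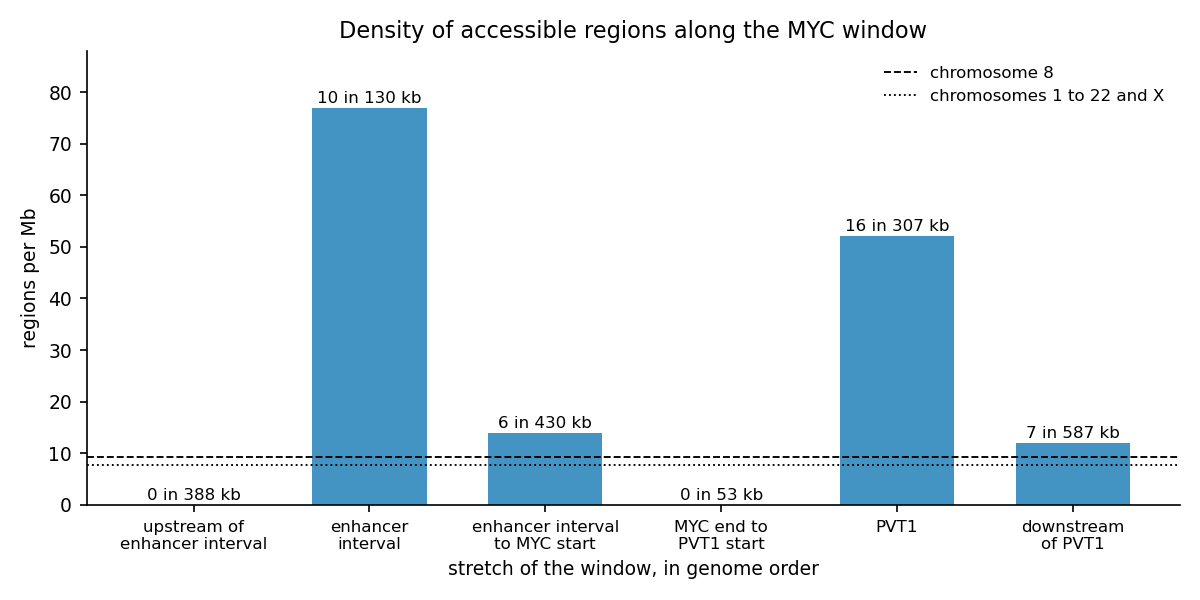
Regions per Mb in 6 stretches of the window in genome order, with the count and length of each above its bar; the dashed and dotted lines mark chromosome 8 (9.2 per Mb) and chromosomes 1 to 22 and X (7.72 per Mb). The enhancer interval (76.9 per Mb) and PVT1 (52.2 per Mb) stand above the other stretches, in this order only with the bounds as given (44.4 per Mb in the narrowed interval); MYC itself, with 1 midpoint in 5.37 kb, is too short for a rate and is left out.

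The body of PVT1 held 16 regions, or 52.2 per Mb, and they lay mostly towards its 3′ end. With the gene split at its midpoint, the 5′ part held 4, the region over the start and those at 154, 181 and 206 kb downstream of the MYC start. The 3′ part held 12 over the same length of 153 kb. The regions of the 5′ part measured 2404, 823, 1120 and 353 bp, of which the first 3 were at the highest score and the last had 763. In the 3′ part each region lay at most 12.1 kb from another. They were of moderate and even width, with a median of 842.5 bp and a range from 443 to 1141 bp. The split was chosen after the positions were seen.

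Within the 3′ part, regions came in close pairs and triplets. A pair at 240 and 241 kb downstream of MYC, 865 and 443 bp wide, had scores of 612 and 541, the latter the lowest of the whole list. A triplet at 252, 257 and 261 kb measured 961, 841 and 844 bp, of which only the middle one was at the highest score and the others had 829 and 809. The pair at 278 and 280 kb had scores of 718 and 575. A pair at 313 and 315 kb (chr8:129060726-129061866, 1141 bp, and chr8:129062580-129063424, 845 bp) were both at 1000. A single region at 328 kb (1053 bp, score 978) and a pair at 341 kb (785 bp, score 731) and 347 kb (617 bp, score 820) followed. A region of 803 bp at the highest score lay 368 kb downstream of MYC, just past the end of PVT1.

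Downstream of PVT1 the regions thinned out, though not below the average of chromosome 8, at 9.2 per Mb. In 587 kb there were 7, or 11.9 per Mb, and none of them had a neighbour within 10 kb. After the one at the end of the gene they lay at 449, 486, 504, 532 and 578 kb downstream of MYC, with widths of 498, 451, 593, 728 and 1058 bp. Those at 504 and 578 kb were at the highest score, and the others had 689, 907 and 924. The outermost member, of 1181 bp at the highest score, lay at 922 kb, beyond an interval of 343 kb with no region (chr8:129326661-129669518). It was the most isolated member, since the next region of the chromosome followed after another 604 kb.

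Deposited scores were lower in PVT1 than among the upstream regions. The score is a whole number per region, from 541 to 1000, with many regions at the top value, and its scale is not named in the list. The list's name carries the abbreviation of the irreproducible discovery rate, a measure of agreement between replicates. In the whole list 60.1% of regions were at 1000, and in the window 22 of 40, or 55%, were. Upstream of the MYC start 12 of 16 were at the top and downstream 10 of 24. The share was 7 of 10 in the enhancer interval, 6 of 16 in PVT1 and 4 of 7 downstream of it. In the 5′ part of PVT1 3 of 4 were at the top and in the 3′ part 3 of 12. Without the PVT1 members the share in the window was 66.7%. Members are sites of 1 list and not replicates, so these shares carry no test, and whether fewer reads or less agreement between the cultures goes with the lower scores in PVT1 was not tested.

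**Figure D3:**
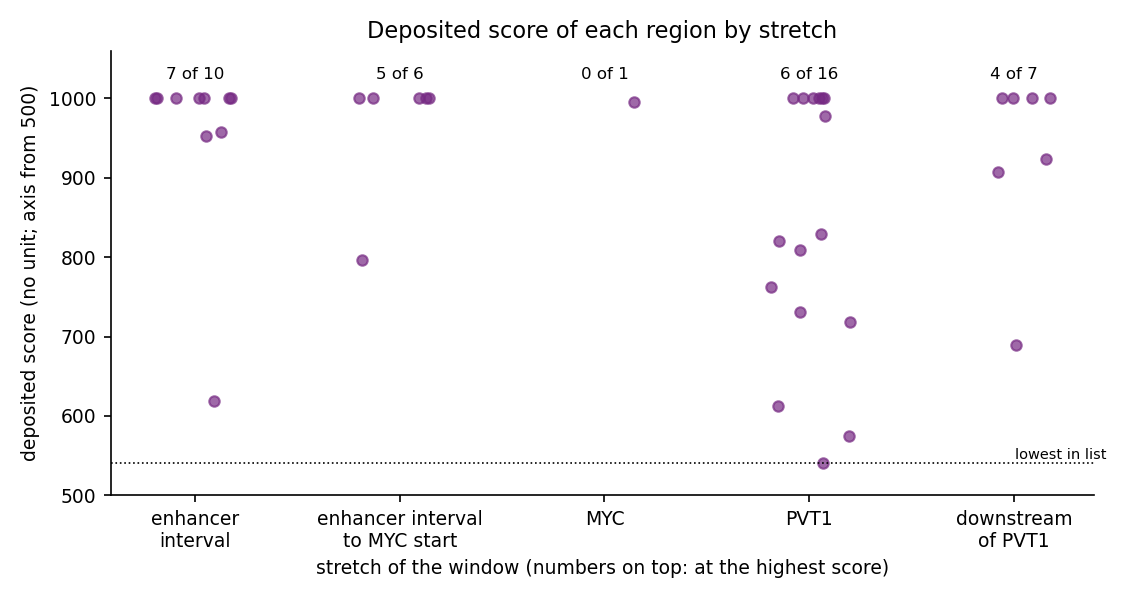
The deposited score of each region (no unit, axis from 500) by stretch of the window, with points spread sideways for visibility; the numbers on top count regions at the highest score of 1000. Scores in PVT1 run down to 541, the lowest in the list, while only 1 of the 10 regions in the enhancer interval is below 900.

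Width did not set the window apart as the number of regions did. The median member was 796 bp wide, with quartiles at 590 and 1031 bp, against 756 bp with quartiles at 547 and 1082 bp in the whole list. Of the members, 23 of 40 were wider than the list's median, which 49.9% of all regions exceeded. The median was 776 bp in the enhancer interval, 842.5 bp in PVT1 and 728 bp downstream of PVT1. The 4 widest members lay at the PVT1 start, at 168 kb upstream, at the MYC start and at 526 kb upstream. All 4 were at the highest score, as were 60.1% of regions in the whole list. A share among regions of similar width was not computed. Together the members covered 34.7 kb, or 1.83% of the window, against 0.801% of chromosome 8.

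The window held 21.1 regions per Mb, 2.29 times the density of chromosome 8 and 2.73 times that of chromosomes 1 to 22 and X. Its neighbours along the chromosome also exceeded the chromosome's average, with 26 regions in the 1.9 Mb directly before it and 27 in the 1.9 Mb directly after. Over 1589 consecutive windows of 1.9 Mb, the median was 14 regions with quartiles at 7 and 21, and 1.32% of the windows held 40 or more. On chromosome 8, 3 of 77 such windows did, and the median was 17. Windows of 130 kb held 10 or more regions, as the enhancer interval did, in 0.167% of 23344 cases, and windows of the length of PVT1 held 16 or more in 0.243% of 9886. Of these windows 53.9% and 33.3% held none. Consecutive windows start at arbitrary points while the enhancer interval and PVT1 were placed on known features, so these shares describe the list and are no test.

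**Figure D4:**
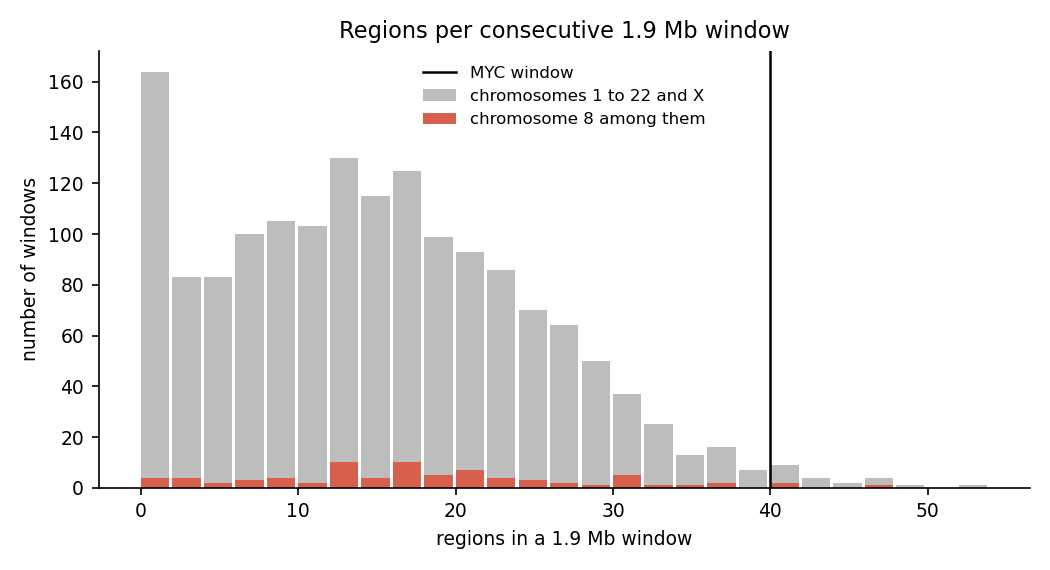
Number of consecutive 1.9 Mb windows (vertical) by the number of regions in each (horizontal) on chromosomes 1 to 22 and X in grey, with those of chromosome 8 in red; the line marks the 40 regions of the MYC window. Most windows hold fewer than the 40 regions of the MYC window, and 21 of 1589 hold as many or more.

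Members lay closer together than regions elsewhere. More regions per Mb shorten distances and raise the share in clusters by themselves, so these values are not a trait separate from the density. The median distance from a member to its nearest region was 5.14 kb, against 13.6 kb on chromosome 8 and 18.5 kb on chromosomes 1 to 22 and X. Joining regions at most 10 kb apart gave 9 clusters of 2 or 3 members, which held 23 of the 40, or 57.5%, against 37.6% of the whole list in clusters. Of the 9 clusters, 3 lay upstream between 558 and 428 kb, 1 at MYC and 5 in PVT1. The empty stretches around the clusters were long but not rare in the list. The 242 kb interval upstream was matched or exceeded by 12.5% of the intervals between neighbouring regions on chromosomes 1 to 22 and X, and the 343 kb interval downstream by 8.06%. The interval before the first member ran for 795 kb, partly outside the window, and 2.12% of intervals were as long. Because depth is unknown, a stretch without regions is not read as closed chromatin.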

How the data were processed

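Chromatin accessibility was measured by ATAC-seq in 2 cultures of GM12878, with 50000 cells each, and the authors deposited 1 list of regions in hg19 giving for every region its position, a number and a score. The submitters' processing notes name, with no roles, MACS2 2.1.0, BWA 0.7.13, Trim Galore 0.3.3, CASAVA 1.8.4, bedtools 2.24.0, SAMtools 0.1.19 and Picard 1.92. A shift of reads for the transposase is neither stated nor denied there. Scores, as the authors deposited them, are whole numbers with a ceiling, which no header explains. They served only to describe regions, to compare stretches of the window within this list and to filter regions. Abbreviations in the list's name point to a threshold on the irreproducible discovery rate, which measures agreement between replicates, and to filtering for mappability, a blacklist and mitochondrial DNA; no label describes these steps. Across the window the numbers of the regions run on with 0 skipped.

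Positions are 1-based. Distances run from the MYC start to the midpoint of a region. The bounds of the window, of MYC and PVT1 and of the enhancer interval were set from earlier knowledge of the locus. Consecutive windows run from the start of each chromosome, whose length and bands came from circlize 0.4.16 under R 4.3.3. Regions named are those in the enhancer interval, in PVT1 and in or within 10 kb of MYC, the 3 widest, those beside the 3 longest empty intervals and the outermost. The regions at 428, 186 and 111 kb upstream, and those 368 to 532 kb downstream, fall outside this rule and were added after their values were seen. The members, lists and comparisons were chosen with earlier results of these data known. Calculations used Python 3.11.15, numpy 2.4.6 and pandas 2.3.3, and matplotlib 3.10.9 for plots. The functions for assigning, joining and counting regions were tested on simulated data and recovered 8 of 8 planted answers. Beyond these bounds neither hg19 annotation nor sequence was used, so exons, promoters of other genes and motifs were not analysed here.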

Additional observations from a re-analysis of the deposited data

How the results depend on the processing

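Of 20 alternatives over 9 results, 16 left the value about the same and 4 moved it; 6 of the 20 were chosen after seeing the data. A count was taken as the same within 1.5 times, and a median, share or ratio within its 95% binomial interval. That interval is only a yardstick, since members are not replicates. By it the share at the highest score counted as the same without PVT1, at 66.7% in place of 55%. Yet the first value is above the 60.1% of the list and the second below it. With only regions at the highest score, the window held 22 regions in place of 40, with 10 downstream of the MYC start in place of 24 and 6 in PVT1 in place of 16, so that upstream members (12) then outnumbered downstream ones. The setting removes regions by its construction, and 60.1% of the whole list is at the highest score. Narrowing the enhancer interval by 20 kb on each side left 4 regions in place of 10 and 44.4 per Mb in place of 76.9, since the outer members lie close to its bounds, and widening it by as much gave 11. The density over that of chromosome 8 ran from 2.13 with the highest scores only to 2.29. Joining at 5 or 25 kb gave 8 clusters in place of 9, but their make-up changed. At 5 kb the clusters held 50% of the members, against 26.1% of the list, and the largest had 3. At 25 kb they held 82.5%, against 57.6% of the list, and the largest had 7. No paired analysis was possible because the deposited list gives no values for single cultures, and leaving out a culture was not possible for the same reason.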

Other observations

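Beyond the downstream end of the window, the same chromosome band, 8q24.21, held another 27 regions. After the outermost member and 604 kb with no region came a pair of regions (chr8:130274321-130282045) at 1526 to 1534 kb downstream of MYC, neither at the highest score. A further 277 kb without regions separated this pair from a compact cluster of 4 regions over 6.23 kb, at 1811 to 1817 kb downstream (chr8:130558952-130565179). The regions of this cluster were 758, 709, 1061 and 1072 bp wide with scores of 948, 720, 1000 and 1000, and the next region lay 129 kb further on. Joined at 10 kb, it held more regions than any cluster within the window, where the largest had 3. This order holds only at that distance: joined at 25 kb, the largest cluster in the window had 7, while this one stayed at 4. Enhancers far downstream of MYC are known to act on it in blood stem and progenitor cells. Whether this cluster corresponds to any of them was not tested, and it was singled out after its values were seen.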
